A study of Rattus norvegicus with 8 samples.

Results

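The genes described here encode the core of the microRNA (miRNA) pathway: Drosha and Dgcr8, Dicer1, the Argonautes Ago1, Ago2 and Ago3, the scaffold proteins Tnrc6a, Tnrc6b and Tnrc6c, and the helicase Mov10. They were listed by symbol, under a rule that uses no measured value, and all 10 were found among the 28909 symbols of the count table. All 10 also passed the filter on low counts (more than 20 reads in at least 2 libraries), which left 14309 genes for testing.

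RNA came from primary hippocampal neurons of Sprague-Dawley rat embryos that were grown on porous filter inserts, so that somata stayed on the upper side while axons and dendrites (processes) reached the lower side. The cultures received either picrotoxin (PTX), which blocks GABA-A receptors and raises network activity, or the vehicle ethanol (control) for 48 h, from day in vitro 18 to day 20. Total RNA depleted of ribosomal RNA was sequenced from somata control, somata PTX, processes control and processes PTX, with 2 libraries for each of the 4 groups. No source used here says whether the replicates came from separate cultures, so p-values measure the spread between these libraries, which may be technical.

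MiRNAs are transcribed as long hairpin precursors. In the nucleus the Microprocessor, formed by the nuclease Drosha and the RNA-binding protein Dgcr8, releases the hairpin, and in the cytoplasm Dicer1 trims it to a short duplex, of which a single strand is loaded into an Argonaute protein. The Argonaute finds target mRNAs by base pairing, and the Tnrc6 (GW182) proteins bound to it recruit the deadenylases that shorten the poly(A) tail and lead to translational repression and decay. In neurons this machinery is present near synapses as well as in the soma, and it is known for restraining the local synthesis of synaptic proteins.

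Library totals ranged from 12290890 to 18455662 counts. Genes outside the mitochondrial genome held 9517542 to 11227599 counts in somata and 4702054 to 5491237 in processes, because mitochondrial transcripts took 22.6 to 26.7% of somata counts and 68.5 to 72.5% of process counts. The depth behind each gene therefore differed: Tnrc6b had 1109 to 1417 reads in process libraries, Dgcr8 had 153 to 182 and Mov10 only 18 to 36. Each level is a CPM value (reads per 1e+06 scaled reads) after TMM scaling, which sets libraries on a common scale through the bulk of the genes, and they were compared between groups and not between genes, since transcript lengths were not used.

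In the main fit, which left out the replicate number, Ago2 was the only one of the 10 genes whose change after PTX passed the test. It rose 1.65-fold in somata and 1.62-fold in processes. Its reads numbered 982 and 1173 in the somata control libraries and 2023 and 1692 in the somata PTX libraries. These correspond to 41.7 and 45.9 CPM in control and 72.7 and 71.6 CPM in PTX. Both PTX libraries lay above both controls, and the log2 fold change was 0.72 (SE, its standard error, 0.103; adjusted p = 0.00425, edgeR quasi-likelihood test with Benjamini-Hochberg adjustment over all genes tested). The same edgeR test gives every adjusted p below for which no other test is named.

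In processes, Ago2 was measured at 51.1 and 55.9 CPM in control and at 86.8 CPM in each PTX library. The groups did not overlap here either, and the log2 fold change was 0.70 (SE 0.107, adjusted p = 0.0067). Across the 4 groups the order of Ago2 levels was somata control, processes control, somata PTX and processes PTX, with means of 43.8 ± 2.97, 53.5 ± 3.41, 72.2 ± 0.778 and 86.8 ± 0.0264 CPM (SD, n = 2). The difference between the 2 PTX responses, tested as an interaction of PTX and compartment, was -0.02 on the log2 scale with a 95% interval from -0.35 to 0.31. Each call rested in part on the control library with the lower value. Without somata control replicate 1 the log2 fold change in somata was 0.65 (adjusted p = 0.0521), and without processes control replicate 1 that in processes was 0.63 (adjusted p = 0.0648). In the other 16 of 17 alternatives for each compartment the call was kept.

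**Figure D1:**
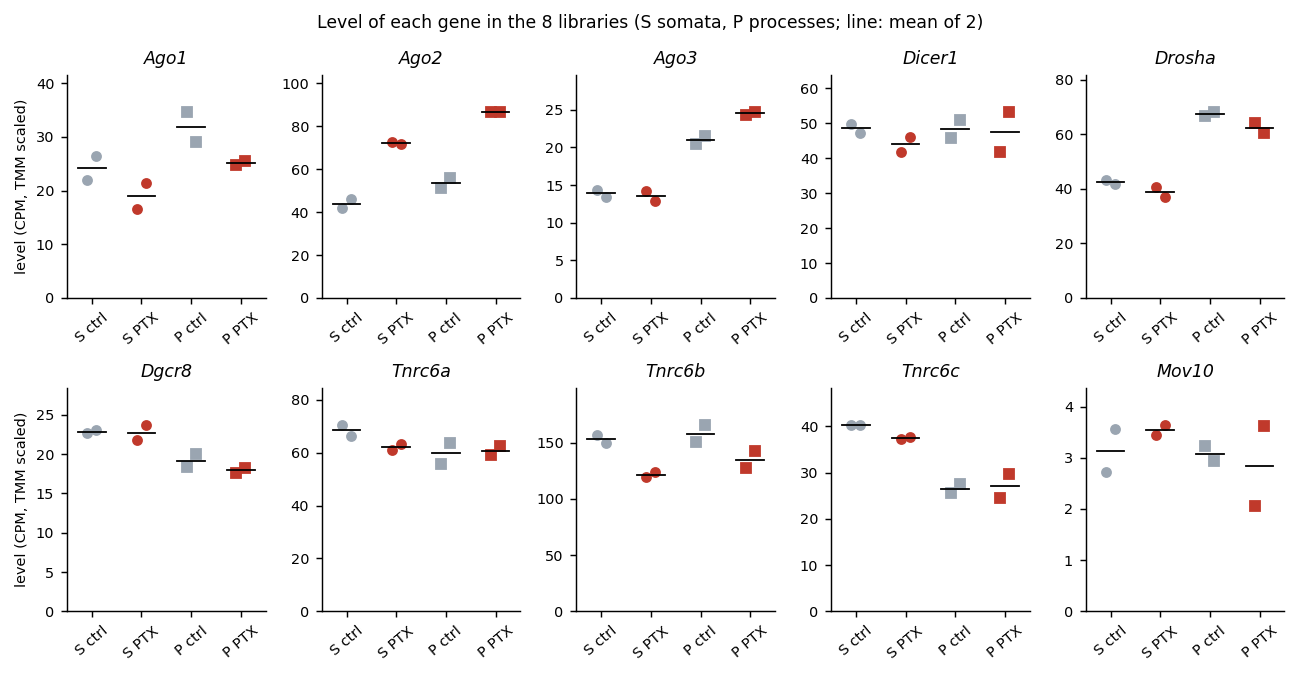
Level (CPM after TMM scaling, linear axes from 0) of each of the 10 genes in the 8 libraries, with circles for somata (S), squares for processes (P), grey for control, red for PTX and a line at the mean of 2 libraries. Ago2 rose with PTX in somata (means of 43.8 and 72.2 CPM) and in processes (53.5 and 86.8 CPM), while Ago3 and Drosha differed mainly between compartments.

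Read against the whole table, 1 of 10 members was called higher with PTX in somata, where 2.09% of the genes tested were called higher, and 0 of 10 were called lower, where 1.5% of all genes were. In processes 1 of 10 was called higher against 1.64% of all genes, and 0 of 10 lower against 2.1%. Without adjustment, 3 of 10 members had a p under 0.05 in somata, against 15.6% of all genes tested, and 1 of 10 in processes, against 16.6%. The likelihood ratio test and DESeq2 each called 1 member in each compartment, and 0 lower, where the former called 6.79 and 6.63% of all genes in either direction and the latter 3.52 and 4.47%. The median log2 fold change of the 10 genes was -0.12 in somata and -0.06 in processes, against -0.01 over all genes tested in each compartment. For the interaction, edgeR called 0 of 10 members and 0% of all genes tested, and 0 members had an unadjusted p under 0.05, against 572 of all 14309 genes. DESeq2 and the likelihood ratio test also called 0 members for the interaction.

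Ago1, a close relative of Ago2 that also loads miRNAs, had lower values after PTX, but its change did not pass the test. It was measured at 21.9 and 26.5 CPM in somata control and at 16.6 and 21.4 CPM in somata PTX. The log2 fold change was -0.35 (SE 0.153, adjusted p = 0.292), and the 2 groups, although they did not overlap, were separated by less than the distance between the libraries within either. In processes Ago1 had 34.7 and 29.0 CPM in control and 24.7 and 25.4 CPM in PTX, with a log2 fold change of -0.35 (SE 0.165, adjusted p = 0.328). When the replicate number was added to the model as a block, the somatic difference of Ago1 passed (adjusted p = 0.0474) while that in processes did not (adjusted p = 0.11).

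Ago3 did not pass the test with PTX in either compartment. Its somatic level was 14.4 and 13.4 CPM in control and 14.2 and 12.8 CPM in PTX, and the groups overlapped. In processes it was 20.4 and 21.5 CPM in control and 24.3 and 24.7 CPM in PTX, a log2 fold change of 0.23 (SE 0.128, adjusted p = 0.416). Its response gave the most positive interaction of the 10 genes, 0.27 on the log2 scale, with a 95% interval from -0.12 to 0.66 that includes 0.

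Since the Argonautes load the same kind of small RNA, the make-up of the Argonaute reads was also computed within each library, a measure that needs no scaling between libraries. It was chosen after the levels had been seen, it rests on the same reads as the test of Ago2, and it is given as a description. Ago4, which is not among the 10 genes, was included to complete the family. Ago2 took 50.3 and 50.1% of the Ago1 to Ago4 reads in somata control and 66.5 and 64.2% in somata PTX. In processes it took 44.8 and 49.0% in control and 60.4 and 59.8% in PTX. Transcript lengths were not used, so these shares, and the ratios given below, compare reads and not numbers of transcripts. The share of Ago2 was higher with PTX by 15.1 percentage points in somata and 13.2 in processes. Leaving out any library of the 2 groups compared gave 14.0 to 16.2 points in somata and 11.1 to 15.3 points in processes.

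The share of Ago1 moved the other way. It was 27.7% ± 1.77 in somata control and 17.2% ± 2.87 in somata PTX (SD, n = 2), and in processes 27.9% ± 3.51 in control and 17.3% ± 0.246 in PTX. Per Ago1 read there were 1.82 ± 0.123 Ago2 reads in somata control and 3.87 ± 0.739 in somata PTX. In processes this ratio was 1.70 ± 0.321 in control and 3.46 ± 0.0744 in PTX. The summed level of the 4 Argonautes was 82.9 and 91.7 CPM in somata control and 109 and 112 CPM in somata PTX. In processes it was 114 CPM in each control library and 144 and 145 CPM in PTX. These sums include Ago2 and were not tested apart from it.

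**Figure D2:**
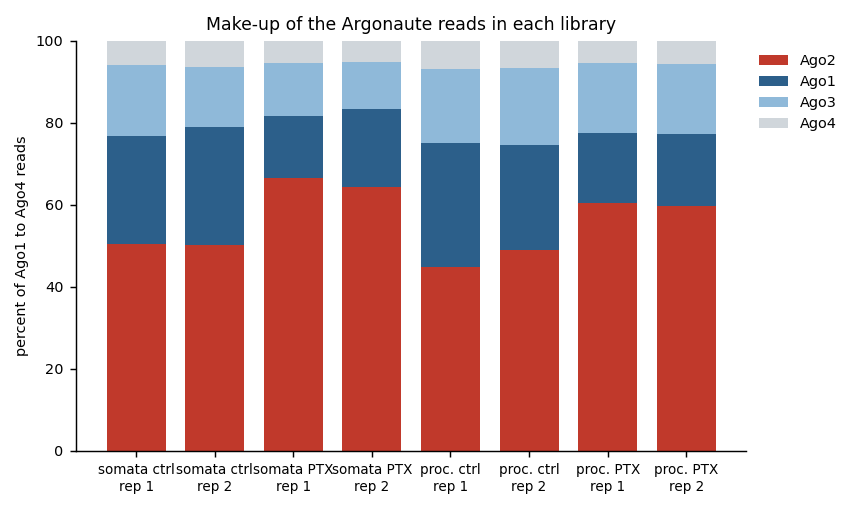
Percent of the reads of Ago1, Ago2, Ago3 and Ago4 that fell on each of the 4 genes, stacked for each of the 8 libraries, on a linear axis that starts at 0. Ago2 (red, at the bottom) took 44.8 to 50.3% in the 4 control libraries and 59.8 to 66.5% in the 4 PTX libraries, while the share of Ago1 was lower in every PTX library than in every control library. Because the shares make up the whole, a higher share of Ago2 lowers the others by construction.

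The 2 processing nucleases and the Microprocessor partner Dgcr8 showed no change with PTX that passed the test. Drosha, the nuclear nuclease, had 43.2 and 41.9 CPM in somata control and 40.6 and 37.1 CPM in somata PTX. Its level in processes was 66.8 and 68.2 CPM in control and 64.2 and 60.4 CPM in PTX. The log2 fold changes were -0.13 (adjusted p = 0.638) and -0.12 (adjusted p = 0.652), with 95% intervals from -0.36 to 0.09 and from -0.35 to 0.12, so a 1.65-fold rise such as that of Ago2 lay outside both.

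Dgcr8, the RNA-binding subunit, was at 22.7 and 23.0 CPM in somata control and at 21.8 and 23.7 CPM in somata PTX, so that the 2 groups overlapped. Its log2 fold change was -0.01 in somata (adjusted p = 0.988) and -0.10 in processes (adjusted p = 0.778). Dicer1, the cytoplasmic nuclease, was at 49.8 and 47.3 CPM in somata control and at 41.8 and 46.1 CPM in somata PTX, a log2 fold change of -0.14 (adjusted p = 0.691). In processes its PTX libraries, at 41.9 and 53.3 CPM, lay on either side of the control libraries at 45.7 and 50.9 CPM.

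Of the Tnrc6 scaffolds, Tnrc6b came closest to a change. It was measured at 157 and 150 CPM in somata control and at 119 and 124 CPM in somata PTX. The groups did not overlap, but the log2 fold change of -0.34 (SE 0.109) had an adjusted p of 0.141 without a block. With the replicate block the adjusted p was 0.012, so that 3 members (Ago2 higher, Ago1 and Tnrc6b lower) were called in somata under that fit, which called 14.0% of all genes there. In processes Tnrc6b had 150 and 166 CPM in control and 127 and 142 CPM in PTX, a log2 fold change of -0.23 (adjusted p = 0.341, with the block 0.135).

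Tnrc6a and Tnrc6c, which serve the same role, had smaller differences. Tnrc6a was at 70.4 and 66.5 CPM in somata control and 60.9 and 63.1 CPM in somata PTX (log2 fold change -0.14, adjusted p = 0.613). Tnrc6c was at 40.3 CPM in each somata control library and at 37.4 and 37.6 CPM in somata PTX (log2 fold change -0.10, adjusted p = 0.767). In processes the log2 fold changes of Tnrc6a and Tnrc6c were 0.02 and 0.04, with overlapping groups. Within the Tnrc6 reads, Tnrc6b took 58.5% ± 0.183 in somata control and 55.0% ± 0.2 in somata PTX, and 64.7% ± 0.314 in processes control and 60.5% ± 0.264 in processes PTX (SD, n = 2), again as a description.

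Mov10, an RNA helicase that binds Argonaute complexes, was the gene with the lowest counts of the 10. It had 64 and 91 reads in somata control, 96 and 86 in somata PTX, 29 and 25 in processes control and 18 and 36 in processes PTX. Control and PTX values overlapped in both compartments, and the 95% interval of its log2 fold change reached from -0.38 to 0.73 for somata and from -0.82 to 0.62 for processes. At this depth the somatic interval includes a change of the size seen for Ago2.

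**Figure D3:**
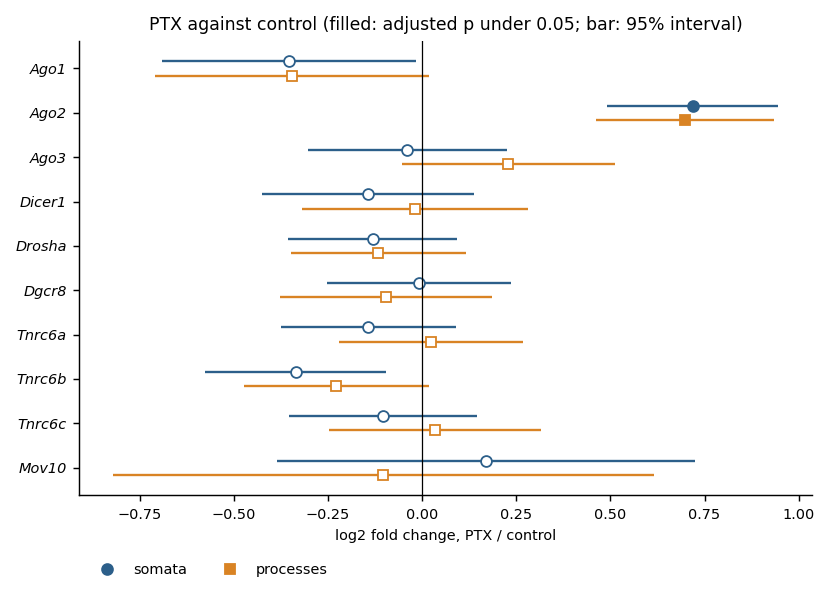
Log2 fold change of PTX against control for each of the 10 genes in somata (blue circles) and processes (orange squares), with bars for the 95% interval and filled symbols for an adjusted p under 0.05. Ago2, at 0.72 and 0.70, has the only filled symbols. The intervals of Ago1 and Tnrc6b, which are not adjusted for the number of genes tested, lie wholly below 0 in somata and mostly below 0 in processes.

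Cell type markers were read beside the PTX comparison. Of 7 neuronal markers, 2 were higher and 1 lower with PTX in somata (Gad1 0.82, Gad2 0.92 and Rbfox3 -0.67 on the log2 scale), and 2 were higher in processes (Slc17a7 0.73 and Gad2 0.92). Of 6 astrocyte and 8 oligodendrocyte lineage markers, 0 were called with PTX in either compartment (adjusted p from 0.156 upward). The summed astrocyte marker level was 3280 to 3730 CPM in somata control and 2503 to 3497 CPM in somata PTX. None of the 6 microglial markers passed the filter on low counts, and of 5 endothelial markers only Kdr did, which was higher with PTX in somata by 1.41 (log2). The part of these differences in the change of Ago2 was not tested. In bulk RNA, fewer cells of a type and less RNA per cell cannot be told apart.

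Between compartments, Drosha and Ago3 were higher in processes than in somata and Tnrc6c was lower, in control and in PTX cultures alike. All these differences are relative to the typical gene, since nothing in these libraries reports how much RNA each compartment held. When libraries were scaled by library size only, the median log2 fold change of all genes tested moved from -0.05 to -1.86 in control and to -1.87 in PTX cultures. All 10 members were then called lower in processes, where this scaling called 94.1 and 94.3% of all genes in either direction. Relative to that shifted median, Drosha was at 0.72 and 0.73, Ago3 at 0.64 and 0.91 and Tnrc6c at -0.55 and -0.41 in control and PTX cultures.

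The reference promoters of Ago3 and Drosha are shown because these are the members called higher in processes in both kinds of culture. They come from the 250 bases before each annotated start in RefSeq's GRCr8 annotation, without the stretch next to the start that lies within the span of the gene itself, a later assembly than the Rnor_6.0 to which the study aligned, on the minus strand at chr5:143998747-143998987 for Ago3 and on the plus strand at chr2:63591728-63591884 for Drosha. Capitals mark TGACG or its complement CGTCA, the short core of the cAMP response element, and GGGCGG or its complement CCGCCC, the GC box.
Ago3: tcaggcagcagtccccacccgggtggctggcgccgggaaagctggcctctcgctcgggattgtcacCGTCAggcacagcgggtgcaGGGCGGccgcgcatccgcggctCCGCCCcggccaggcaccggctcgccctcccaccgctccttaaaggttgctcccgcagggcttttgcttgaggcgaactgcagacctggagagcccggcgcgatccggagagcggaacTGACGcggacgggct
Drosha: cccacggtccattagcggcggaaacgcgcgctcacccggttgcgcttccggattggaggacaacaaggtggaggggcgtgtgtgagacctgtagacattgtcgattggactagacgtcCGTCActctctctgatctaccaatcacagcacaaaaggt
In the 250 bases before the start, Ago3 held the TGACG core 184 and 24 bases before the start and the GC box 164 and 142 bases before it. Drosha held the core 132 bases before its start and no GC box. Of the 7 members with an entry (Ago1, Ago3, Dicer1, Drosha, Dgcr8, Tnrc6a and Mov10), 3 held the TGACG core on either strand, against 18.2% of 33469 rat promoters in windows of the same length, and 3 held the GC box, against 30.5%. The full element TGACGTCA, which contains the core, was in 0 of 7 and in 1.59% of all. The windows of Ago1, Tnrc6a and Mov10 lay wholly within the span of the gene itself. Tnrc6a was among the members counted with the core, and Ago1 among those counted with the GC box. These matches describe the letters of the window only. On that assembly Ago3, Ago1 and Ago4 are direct neighbours in this order, whereas Ago2 lies elsewhere, between Chrac1 and Ptk2.

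Drosha had 43.2 and 41.9 CPM in somata control and 66.8 and 68.2 CPM in processes control, so that all process values lay well above all somatic ones. The log2 fold change of processes against somata was 0.67 (SE 0.104, adjusted p = 0.000415) in control cultures and 0.68 (SE 0.104, adjusted p = 0.000341) in PTX cultures. Dgcr8, its partner in the Microprocessor, differed in the opposite direction. Its level was 22.7 and 23.0 CPM in somata control and 18.4 and 20.0 CPM in processes control (log2 fold change -0.25, adjusted p = 0.102), and 21.8 and 23.7 CPM in somata PTX against 17.6 and 18.3 CPM in processes PTX (log2 fold change -0.34, adjusted p = 0.0344). The call of Dgcr8 in PTX cultures was kept in 8 of 17 alternatives, with adjusted p-values between 1e-07, under scaling by library size only, and 0.185. It was lost without either somata control library, either somata PTX library or either processes PTX library, with log2 fold changes from -0.40 to -0.28. Among the alternatives that kept all libraries, DESeq2 lost it (adjusted p = 0.149). Dicer1 did not differ by more than its spread, with log2 fold changes of -0.01 (95% interval -0.30 to 0.28) in control and 0.12 (95% interval -0.17 to 0.41) in PTX cultures.

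Ago3 was at 14.4 and 13.4 CPM in somata control and at 20.4 and 21.5 CPM in processes control. The log2 fold change was 0.59 (SE 0.125, adjusted p = 0.00295), and in PTX cultures, where the values were 14.2 and 12.8 against 24.3 and 24.7 CPM, it was 0.86 (SE 0.123, adjusted p = 0.000225). Ago1 was at 21.9 and 26.5 CPM in somata control and 34.7 and 29.0 CPM in processes control, a log2 fold change of 0.40 (adjusted p = 0.0592). In PTX cultures the log2 fold change of Ago1 was also 0.40 (adjusted p = 0.058). With the replicate block it passed in control (adjusted p = 0.00866) and in PTX cultures (adjusted p = 0.0106). The likelihood ratio test gave adjusted p-values of 0.0499 and 0.049, just under the threshold, and DESeq2 gave 0.0829 and 0.0732. Ago1 was called higher in processes in 5 of 17 alternatives in control and in 4 of 17 in PTX cultures. It also passed in control cultures without somata PTX replicate 1 (0.39, adjusted p = 0.0467) or without somata PTX replicate 2 (0.39, adjusted p = 0.0466), and in PTX cultures without somata PTX replicate 2 (0.60, adjusted p = 0.0219).

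For Ago2, the log2 fold change of processes against somata was 0.29 in control cultures (adjusted p = 0.0458) and 0.27 in PTX cultures (adjusted p = 0.0526), values on either side of the threshold. With the replicate block both passed (adjusted p = 0.0132 and 0.014). The higher call in control cultures was kept in 3 of 17 alternatives, and scaling by library size only called Ago2 lower (-1.52). In the other alternatives it was lost, with an adjusted p of up to 0.526, and 7 of the 8 libraries ended it when left out, all but processes control replicate 1, with log2 fold changes between 0.22 and 0.35. In PTX cultures Ago2 passed without processes control replicate 1 (adjusted p = 0.0446) or without processes control replicate 2 (adjusted p = 0.0438), at 0.27 in each case.

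The Tnrc6 genes did not behave alike. Tnrc6c was at 40.3 CPM in each somata control library and at 25.5 and 27.6 CPM in processes control, and its log2 fold change of -0.60 (SE 0.121, adjusted p = 0.00216) was the most negative of the 10 genes. In PTX cultures it was at 37.4 and 37.6 CPM in somata and at 24.6 and 29.8 CPM in processes. The resulting log2 fold change, -0.46 (SE 0.12, adjusted p = 0.00855), was -0.33 (adjusted p = 0.0692) without processes PTX replicate 1. The log2 fold change of Tnrc6a was -0.20 in control (adjusted p = 0.161) and -0.03 in PTX cultures (adjusted p = 0.846). That of Tnrc6b was 0.04 (adjusted p = 0.764) and 0.15 (adjusted p = 0.273), and with upper quartile normalization it was -0.16 and -0.03. For Mov10 the log2 fold change was -0.03 in control and -0.30 in PTX cultures, with 95% intervals from -0.67 to 0.62 and from -0.94 to 0.33.

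**Figure D4:**
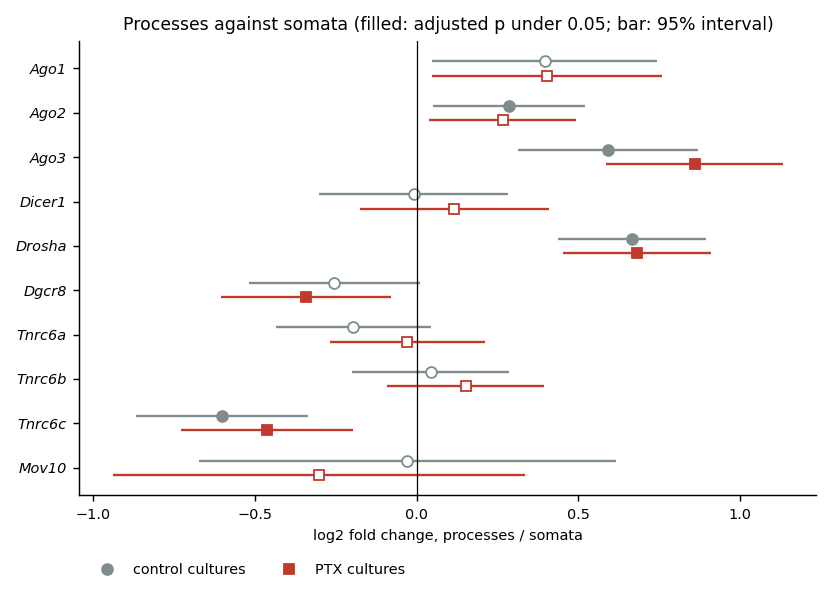
Log2 fold change of processes against somata for each of the 10 genes in control (grey circles) and PTX cultures (red squares) after TMM scaling, with bars for the 95% interval and filled symbols for an adjusted p under 0.05. Drosha and Ago3 lie right of 0 and Tnrc6c left of 0 in both kinds of culture, and with library size scaling alone all 10 genes lie left of 0.

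In control cultures 3 of 10 members (Ago2, Ago3 and Drosha) were called higher in processes, against 25.8% of all genes tested, and 1 (Tnrc6c) lower, against 21.9%. With upper quartile normalization, which called 52.1% of all genes tested in either direction, 2 were higher and 3 lower in control cultures. In PTX cultures 2 (Ago3 and Drosha) were called higher, against 25.7% of all genes, and 2 (Tnrc6c and Dgcr8) lower, against 24%. These shares are near the background. The median log2 fold change of the 10 genes was 0.02 in control and 0.13 in PTX cultures, against -0.05 over all genes tested in each.

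Astrocyte markers moved with the compartments as well. Of the 6 astrocyte markers, 3 were called higher and 1 lower in processes of control cultures, and 4 higher and 0 lower in PTX cultures. Their summed level was 3280 to 3730 CPM in somata control and 12317 to 13791 CPM in processes control, and 2503 to 3497 CPM against 10430 to 11713 CPM in PTX cultures, carried mainly by Gfap (log2 fold change 2.60 in control cultures) and S100b (2.16). Of 7 neuronal markers, 2 were called higher (Map2 2.30 and Rbfox3 0.52) and 5 lower in processes of control cultures, with summed levels of 1727 to 1913 CPM in somata control and 5041 to 5335 CPM in processes control. The neuronal sum in processes was carried mainly by Map2, with 42089 and 38522 reads in processes control, against 1529 and 1111 for Slc17a7. Of 8 oligodendrocyte lineage markers, 1 was called higher in control, and 2 higher and 1 lower in PTX cultures. Their part in the compartment differences of Drosha, Ago3 and Tnrc6c was not tested.

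The proteins that work around this core were followed through 5 lists with 78 symbols, of which 69 were in the count table and 65 were tested. With PTX, 0 of 65 were called in somata and 0 of 65 in processes by edgeR's quasi-likelihood test, against 2.09 and 1.64% of all genes called higher and 1.5 and 2.1% called lower. At an unadjusted p under 0.05 there were 4 of 65 in somata and 5 of 65 in processes, against 15.6 and 16.6% of all genes. The likelihood ratio test called 0 and 1 of 65, against 6.79 and 6.63% of all genes, and DESeq2 0 and 0, against 3.52 and 4.47%. With the replicate block, which called 14.0% of all genes in somata and 11.2% in processes, 3 were called in somata, namely Ran, which drives nuclear export (0.29, adjusted p = 0.0337), the decapping scaffold Edc4 (0.27, adjusted p = 0.0399) and the helicase Ddx5 of the Microprocessor (-0.26, adjusted p = 0.0492). In processes the block gave the editing enzyme Adar (0.35, adjusted p = 0.0215), the RNA-binding protein Khsrp (-0.39, adjusted p = 0.0441) and the CCR4-NOT subunit Cnot11 (-0.93, adjusted p = 0.0238). The median log2 fold change of the 65 genes was -0.03 in somata and -0.02 in processes.

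**Figure D5:**
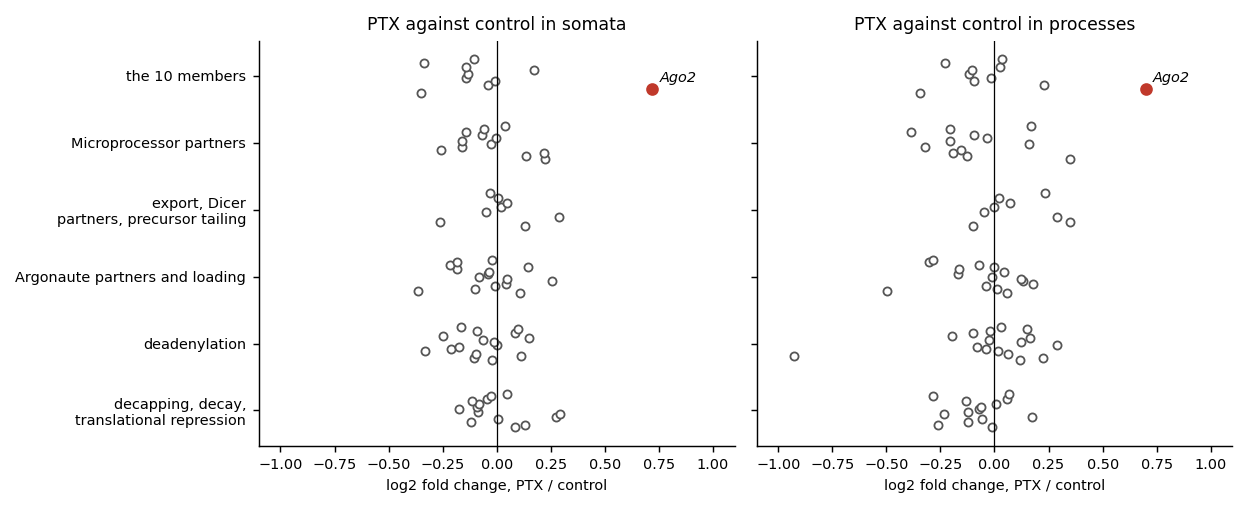
Log2 fold change of PTX against control in somata (left) and processes (right), with each point a gene, for the 10 members and the 65 tested genes of 5 lists of the surrounding pathway. In this fit without the replicate block, Ago2 (red) is the only gene with an adjusted p under 0.05, and the point farthest to the left in processes is Cnot11 at -0.92.

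The surrounding lists differed between compartments in both directions. In control cultures 15 of 65 genes were called higher in processes and 15 lower, and in PTX cultures 14 higher and 13 lower, against 25.8 and 21.9% and 25.7 and 24% of all genes. The split depended on the scaling. After upper quartile normalization 7 were higher and 22 lower in control and 9 higher and 23 lower in PTX cultures. That fit called 52.1 and 53.6% of all genes. Scaling by library size only gave 1 higher with 64 and 62 lower, and called 94.1 and 94.3% of all genes. Without somata control replicate 1 the calls in control cultures were fewer than the 30 given here. Leaving out any library of the groups compared also lowered the number of calls over all genes tested. Of the 65 genes, 0 were called for the interaction by edgeR, the likelihood ratio test or DESeq2, and 4 had an unadjusted p under 0.05 in edgeR, against 572 of all 14309 genes.

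Among the Microprocessor partners, 5 of 12 were higher and 4 lower in processes of control cultures, and without somata control replicate 1 these became 2 and 3. The editing enzyme Adarb1 was at 98.4 ± 20.7 CPM in processes and 55.1 ± 3.70 CPM in somata (SD, n = 2; log2 fold change 0.84, adjusted p = 0.00226), and the RNA-binding protein Hnrnpa1 was also higher (0.67, adjusted p = 0.00347). The helicases that assist the Microprocessor were lower, Ddx17 at 131 ± 0.995 against 244 ± 4.81 CPM (-0.89, adjusted p = 0.000107) and Ddx5 with a log2 fold change of -0.63 (adjusted p = 0.00319). In PTX cultures 3 of 12 were higher, led by Hnrnpa1 (0.86) and Tardbp (0.71), and 3 lower, led by Ddx17 (-1.30) and Ilf2 (-0.64).

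Of 8 genes for export, Dicer partners and precursor tailing, the terminal uridylyltransferase Tut7 was higher (0.35, adjusted p = 0.0222) and the export receptor Xpo5 lower in processes of control cultures, at 38.2 ± 0.428 against 52.2 ± 1.51 CPM (-0.45, adjusted p = 0.00458). In PTX cultures Tut4 (0.40) and Tut7 (0.37) were higher and 0 were lower. The 2 calls in control cultures became 1 without either somata control library or processes control replicate 2, 5 without processes control replicate 1 and 6 with the replicate block. Those in PTX cultures became 1 without either somata control library or processes PTX replicate 2, and 0 without either somata PTX library.

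Of 15 Argonaute partners, 4 were higher and 3 lower in control cultures. The translational repressor Pum2 (0.63, adjusted p = 0.000625) and Ago4 (0.53, adjusted p = 0.0281) led those that were higher, and the ubiquitin ligase Trim32 (-0.66, adjusted p = 0.00062) and the chaperone partner Fkbp4 (-0.51, adjusted p = 0.00301) were among those that were lower. In PTX cultures 4 were higher, led by the co-chaperone Ptges3 (0.61) and Pum2 (0.49), and 3 lower, among them Trim32 (-0.78) and Fxr2 (-0.44). The 7 calls in control cultures became 4 without somata control replicate 1 or processes control replicate 2, and the 7 in PTX cultures became 3 without somata PTX replicate 1 and 4 without processes PTX replicate 2.

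The deadenylation list held the widest range. Pabpc1, the poly(A)-binding protein, was at 397 ± 22.5 CPM in processes and 83.9 ± 0.199 CPM in somata of control cultures (2.24, adjusted p = 5.13e-07), and the deadenylase Cnot6 was at 50.0 ± 10.2 against 21.0 ± 1.15 CPM (1.25, adjusted p = 0.000264). In total 3 of 16 were higher and 6 lower, the latter led by the CCR4-NOT subunits Cnot10 (-1.03, adjusted p = 0.000271) and Cnot9 (-0.75, adjusted p = 0.00111). In PTX cultures 3 were higher, with Pabpc1 at 2.29 and Cnot6 at 1.34, and 4 lower, with the PAN2-PAN3 deadenylase subunit Pan2 at -0.85 and Cnot9 at -0.74. Of 14 genes for decapping, decay and translational repression, the P-body proteins Lsm14a (1.27, adjusted p = 0.000205) and Ddx6 (0.78, adjusted p = 0.000286) were higher in processes of control cultures and Edc4 was lower (-0.41, adjusted p = 0.0129). In PTX cultures Lsm14a (1.36) and Ddx6 (0.78) were higher, and 3 were lower, led by Edc4 (-0.51) and the cap-binding repressor Eif4e2 (-0.47), and these 5 calls became 3 without somata PTX replicate 1 or processes PTX replicate 2.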

How the data were processed

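Ribosome-depleted total RNA was sequenced from a directional library kit, with 2 libraries for each of 4 groups taken from the labels. According to the methods, the authors aligned reads with Subread subjunc, whereas the submitters' processing notes name STAR, with Rnor_6.0, featureCounts and edgeR. The deposited values are raw counts summed by gene symbol, so copies that share a symbol are merged, and since the strand setting of the counting is not given in the sources used here, reads of overlapping genes, antisense genes and near-identical copies are of uncertain origin. Deposited tables of the authors' own PTX comparisons (fold changes, log2 CPM, likelihood ratios, p-values, FDR and biotypes) were not used.

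The 14309 genes that exceeded 20 reads in 2 or more libraries were scaled by TMM and fitted over all 8 libraries with 1 coefficient per group in edgeR 4.0.16 (R 4.3.3), with the quasi-likelihood test and Benjamini-Hochberg adjustment within each contrast at a threshold of 0.05. The interaction subtracts the somatic PTX effect from that of processes. Errors of levels are SD over 2 libraries. All 10 members were named, and of the 5 surrounding lists at most the 2 called genes that rose most and the 2 that fell most per comparison. Genes called only under another fit were named after their values were seen. The members and lists were chosen with earlier results of these data known. The fits were first tested on simulated counts.

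Replicate 2 minus replicate 1 correlated across genes with r from 0.274 to 0.54 over all 6 pairs of groups, so libraries with the same number deviated together. The main fit did not use the numbers. The common coefficient of variation was 11.5% without the replicate block and 6.77% with it. What the numbers mark is not given in the sources used here, and a model with the replicate block is an alternative, beside the likelihood ratio test, DESeq2 1.42.0, other scalings and filters, only the 4 libraries compared, and each library left out.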

Additional observations from a re-analysis of the deposited data

How the results depend on the processing

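Of 840 alternative values for the 10 genes, 737 kept their direction and their side of the threshold, 25 lost the call, 23 gained one and 55 changed sign, most of these from differences near 0. The process libraries, with the lowest counts, limit the precision most for Mov10. A library left alone in its group was assumed to vary like the other groups.

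Leaving out each library in turn changed a call with PTX only for Ago2. Between compartments it changed calls of Ago1, Ago2, Dgcr8 and Tnrc6c, as given above. The fits without a library of the groups compared also called fewer of all genes tested. In the fit with the replicate block, 3 members were called with PTX in somata, and the block changed no call of a member beyond those of Ago1, Ago2 and Tnrc6b given above. It called 36 and 37 of the 65 surrounding genes between compartments, in place of 30 and 27. Of all genes tested it called 57.8 and 59.5% there, in place of 47.7 and 49.8%. The likelihood ratio test called 50.4 and 52.2% of all genes, DESeq2 40.1 and 42.1%, and upper quartile normalization 52.1 and 53.6%. In control cultures the share was 32.8% with no filter and 48.8% with only the libraries compared. In PTX cultures it was 53.2% with the filter of 10 reads. For export, Dicer partners and tailing the 2 calls in control cultures became 4 with the likelihood ratio test and 1 with DESeq2 or no filter, and the 2 in PTX cultures became 1 with DESeq2 or the filter of 10 reads. The 7 Argonaute partners in control cultures became 4 with DESeq2 or only the libraries compared. Upper quartile normalization raised deadenylation in PTX cultures from 7 to 11 and decapping from 3 to 5 in control and from 5 to 8 in PTX cultures, where DESeq2 gave 3.

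Scaling by library size only called 10 members in control and 10 in PTX cultures between compartments, all lower, since it moves the median of all genes. It called 94.1 and 94.3% of all genes there. The values that changed sign under it were, in control cultures, Ago1 -1.42, Ago2 -1.52, Ago3 -1.21, Drosha -1.14 and Tnrc6b -1.76, and in PTX cultures Ago1 -1.42, Ago2 -1.56, Ago3 -0.97, Dicer1 -1.70, Drosha -1.15 and Tnrc6b -1.67. With PTX they were Ago3 0.028 and Dgcr8 0.059 in somata and Dicer1 0.032 in processes, and for the interaction Ago1 -0.0019 and Drosha -0.0073. Upper quartile normalization turned Tnrc6b to -0.16 in control and -0.026 in PTX cultures, Dicer1 to -0.0602 in PTX cultures and the interaction of Ago2 to 0.0047. DESeq2 turned Dicer1 to 0.0016 and requiring 10 reads in every library turned Tnrc6b to -0.024, both in control cultures. Beyond these constructions the cause was not tested.

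Leaving out single libraries changed the sign of further values near 0. With PTX in somata the range was -0.12 to 0.029 for Ago3, -0.071 to 0.048 for Dgcr8 and -0.013 to 0.37 for Mov10. With PTX in processes it was -0.20 to 0.14 for Dicer1, -0.069 to 0.12 for Tnrc6a, -0.11 to 0.16 for Tnrc6c and -0.58 to 0.23 for Mov10. For processes against somata it was, in control cultures, -0.086 to 0.067 for Dicer1, -0.026 to 0.11 for Tnrc6b and -0.21 to 0.17 for Mov10, and in PTX cultures -0.068 to 0.28 for Dicer1, -0.068 to 0.011 for Tnrc6a and -0.78 to 0.031 for Mov10. For the interaction it was -0.16 to 0.21 for Ago1, -0.085 to 0.053 for Ago2, -0.061 to 0.29 for Dicer1, -0.042 to 0.087 for Drosha, -0.0097 to 0.27 for Tnrc6c and -0.75 to 0.058 for Mov10.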

Other observations

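Across the 8 libraries, the genes whose log2 levels followed Ago2 most closely among 10208 genes averaging 5 CPM or more were the uncharacterised locus AABR07007068.1 (Pearson r = 0.991), Vps36, a subunit of the endosomal sorting machinery (r = 0.991), and the locus AABR07007055.1 (r = 0.984). These genes were picked for following Ago2, which itself rose with PTX in the same libraries. Their own PTX values are therefore a description and no separate evidence of a response. AABR07007068.1 was higher with PTX by 1.09 (log2, adjusted p = 0.000351, edgeR quasi-likelihood test) in somata and by 1.12 (adjusted p = 0.000887) in processes. For AABR07007055.1 the values were 1.09 (adjusted p = 0.00232) and 1.11 (adjusted p = 0.00471). Vps36, with log2 fold changes of 0.29 in each compartment, did not pass the test in somata (adjusted p = 0.28) or in processes (adjusted p = 0.357). For Mov10 the closest genes were Zfp275 (r = 0.948), Gmeb1 (r = 0.928) and Pik3cb (r = 0.911), none of which was called with PTX. Mov10 had only 18 to 36 reads in process libraries, and these r are the highest among 10208 genes, so they are a description only.

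Within the 10 genes, Ago3 and Drosha had the most similar levels over the 8 libraries (r = 0.935), and Dgcr8 and Tnrc6c followed closely (r = 0.931). Ago3 and Dgcr8 were the most opposed pair (r = -0.96). These values are descriptions over 8 libraries in 4 groups that share the compartment and the depth that goes with it.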
